A study of Homo sapiens with 6 samples.

Results

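The TRAIL and FAS death receptor pathway was followed in HepG2, an established human hepatoma line that still expresses many hepatocyte genes. Cells overexpressing PBLD, a protein with a domain resembling phenazine biosynthesis enzymes, were compared with control cells. The 10 genes, chosen by name, were the death ligand TNFSF10, its receptors TNFRSF10A, TNFRSF10B and TNFRSF10D, the death receptor FAS, the adaptors FADD and TRADD, the initiator caspases CASP8 and CASP10, and the inhibitor CFLAR. Every probe that the platform annotation gives to 1 of these symbols was taken, 17 of the 47323 probes on the array, and the genes are 10 of 20046 measured. Total RNA of 3 samples labelled control and 3 labelled PBLD overexpressed was measured on Illumina bead arrays, with 1 array for each sample. How PBLD was delivered, whether the controls carried a vector, and whether the PBLD cells were 1 clone are not given in the labels used here. A vector and the act of introducing it cannot be told apart from PBLD in these groups.

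In this pathway a ligand of the tumour necrosis factor family binds a receptor with an intracellular death domain. The receptor recruits the adaptor FADD, which in turn gathers and activates the initiator caspases, and these cleave further substrates, among them BID, which carries the signal to mitochondria. CFLAR, also called c-FLIP, resembles the initiator caspases and competes with them for FADD. Hepatocytes are known to use the mitochondrial branch to complete death receptor signalling.

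All values are log2 intensities as deposited, in which every array had a median of 8. A background limit for each array, the 95th percentile of 566 probes for genes that are silent in liver cells, lay between 8.05 and 8.08, and from 39.9% to 42.2% of probes per array exceeded it. Differences are PBLD overexpressed minus control, tested with limma, and a gene is said to have risen or fallen where its Benjamini-Hochberg adjusted p over all probes was under 0.05. PBLD itself was above background on its probe ILMN_1789653 on all 3 PBLD arrays and on 1 of the 3 control arrays, and rose by 4.64 (adjusted p = 5.29e-16) from controls that lay at the background limit. Its probe ILMN_2304404 was also above background on the 3 PBLD arrays, and on no control array. The other two PBLD probes were above background on at most 1 array and differed by 0.05 and -0.05, neither called. Of 8 measured hepatocyte markers, all were above background on every array and 4 fell, with a median difference of -0.23. PTPRC and CD3E of the leukocyte list and PECAM1 and CDH5 of the endothelial list were above background on no array, while LYZ, CD68 and CD14 of the leukocyte list were above it on all 6. At least 3 arrays were above background for 1 of 6 fibroblast and 1 of 5 endothelial genes. LYZ fell by 0.31 (adjusted p = 0.0216) without overlap, and its part in the other results was not tested. It was the 1 of 5 measured leukocyte genes that passed in limma, and 0 of the fibroblast and endothelial genes did, with VWF of the endothelial list lower at an unadjusted p of 0.00956. The labels do not say whether the 3 samples of a group came from separate cultures. The p-values then cover the spread among these samples alone, and that spread may be technical.

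Of the 10 pathway genes, each represented by its brightest probe, TNFSF10 and CFLAR fell, TNFRSF10A and FADD rose, and 6 did not pass. By probe 4 of the 17 passed, against 6.08% of all probes. Over the whole array 10% of genes passed, 5.81% higher and 4.2% lower. Among the genes above background on at least 3 arrays the share was 18.1%, and 4 of the 9 pathway genes so filtered passed. The median difference of the 10 genes was 0.03, against 0.01 over all genes. The arrays of the 2 groups did not overlap in 6 of the 10 genes, against 23.4% of all genes. These 6 include CASP8, near the background limit, and the share among genes above background was not computed. The genes were chosen with earlier results of these data known, so these counts are descriptions of the list.

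**Figure D1:**
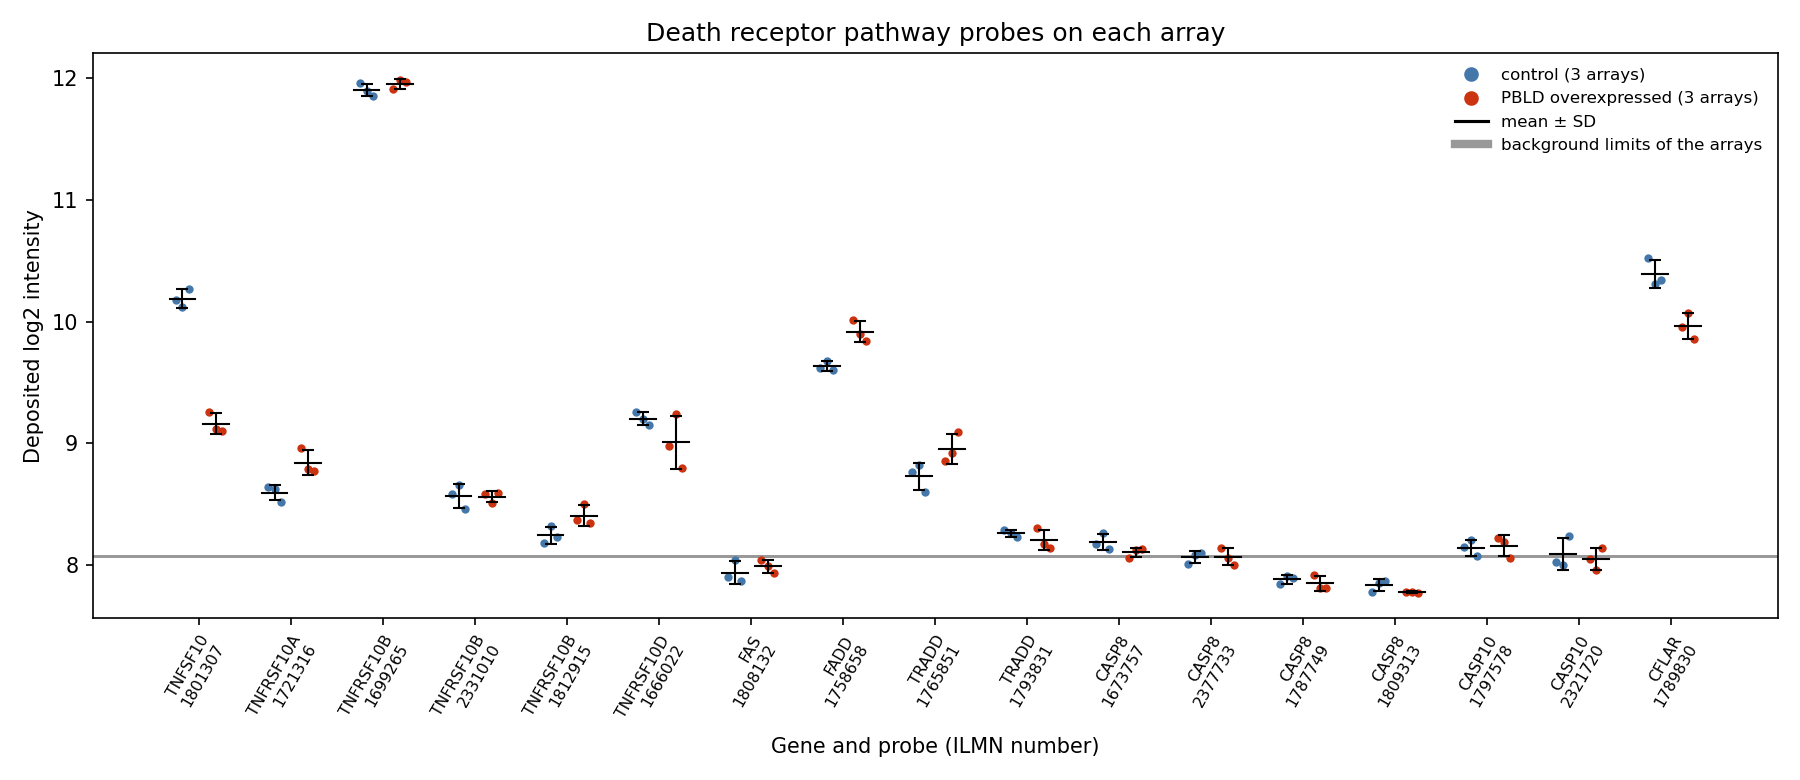
Deposited log2 intensity (vertical axis) of each of the 17 probes (horizontal axis) on the 3 control and 3 PBLD overexpressed arrays, with the mean and SD of each group and the background limits of the arrays as a grey band. TNFSF10 and CFLAR are lower on every PBLD array, and FAS lies under the limits on all arrays; heights of different probes cannot be set against each other.

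TNFSF10 encodes TRAIL, the ligand that engages the TRAIL receptors, and it had the largest difference of the 10 genes. Its probe ILMN_1801307 read 10.18, 10.12 and 10.27 on the control arrays and 9.26, 9.12 and 9.10 on the PBLD arrays. The PBLD arrays were all lower than the controls, with no overlap, and every array was above background. The group means were 10.19 ± 0.07 and 9.16 ± 0.09 (SD, n = 3 each), a difference of -1.03 (SE 0.07, limma adjusted p = 9.79e-08) with a 95% interval of -1.17 to -0.89. That is 2.04-fold lower on the deposited scale. Of the 842 genes that fell, 31 fell further than TNFSF10. The ligand passed in each of the 14 alternatives run per probe, with differences between -1.31 and -0.99 and adjusted p between 1.67e-19 and 0.000505. The summed unlogged intensity of the hepatocyte markers ranged from 276400 to 318300 on the control arrays and from 252100 to 276600 on the PBLD arrays, and its part in the fall of TNFSF10 was not tested. In bulk RNA, fewer cells that express a gene and less RNA per cell cannot be told apart.

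The sequence before the annotated start of TNFSF10 is shown because this gene carries the largest change. That before FADD is shown as a riser with a 250-base window at a single annotated start. Windows of the TRAIL receptor genes were left out of the search, so that of TNFRSF10A, the other riser, was not read. Both printed sequences come from RefSeq (GRCh38.p14) and run 5′ to 3′ on the gene's strand, ending at the base before the start site. Capitals mark matches, searched on both strands, to the TATA box with the letters TATAAA, the GC box with GGGCGG, the CCAAT box, the AP-1 site as TGANTCA, the FOXO site as GTAAACA, or the interferon-stimulated response element, which is GAAA repeated after any 2 bases.
TNFSF10, chr3:172523431-172523680, minus strand: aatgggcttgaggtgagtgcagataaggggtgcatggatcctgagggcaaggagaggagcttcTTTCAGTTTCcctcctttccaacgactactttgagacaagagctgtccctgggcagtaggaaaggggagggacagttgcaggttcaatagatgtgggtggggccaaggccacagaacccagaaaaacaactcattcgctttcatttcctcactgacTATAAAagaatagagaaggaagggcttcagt
FADD, chr11:70203046-70203295, plus strand: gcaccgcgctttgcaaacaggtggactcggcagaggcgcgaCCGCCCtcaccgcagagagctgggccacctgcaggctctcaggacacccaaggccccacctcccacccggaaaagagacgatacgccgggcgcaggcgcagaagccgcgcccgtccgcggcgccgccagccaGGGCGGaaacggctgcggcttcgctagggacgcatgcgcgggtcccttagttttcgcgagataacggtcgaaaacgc

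The TNFSF10 window held a TATA box whose first base lies 31 bases before the start and, on the opposite strand, the letters of the interferon-stimulated response element from 187 bases before it. Of 35116 annotated start sites, 10.7% had the TATA letters in a window of this length, 3.02% the response element and 0.515% both. The joint share was computed for this pair alone, which the TNFSF10 window holds, so it does not measure how rare the window is. The FADD window had neither, and instead held GC boxes from 209 and 77 bases before the start, a motif found in 42.6% of windows. CG pairs numbered 2 in the TNFSF10 window and 32 in the FADD window, against a median of 11 over all windows. AP-1 (6.57% of windows), FOXO (2.98%) and CCAAT (32%) letters were in neither. A match of letters is a description of the sequence and not a measured binding site.

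TNFRSF10A and TNFRSF10B encode the death-domain receptors of TRAIL, also called DR4 and DR5, and TNFRSF10D a decoy receptor that binds the ligand without a working death domain. TNFRSF10A (ILMN_1721316) read 8.64, 8.62 and 8.52 in controls and 8.96, 8.79 and 8.77 in PBLD cells, all above background. Each PBLD array was higher than each control array. The means were 8.59 ± 0.06 and 8.84 ± 0.10 (SD, n = 3 each), a rise of 0.25 (SE 0.07, adjusted p = 0.0427, limma), or 1.19-fold. This call sat close to the threshold and ended in 7 of 14 alternatives. It was lost after normexp background correction (0.38, adjusted p = 0.171) and with an intensity trend (adjusted p = 0.0811). It was also lost without control replicates 1 (0.27, adjusted p = 0.0808), 2 (0.26, 0.0985) or 3 (0.21, 0.155), and without PBLD replicates 1 (0.19, 0.224) or 2 (0.27, 0.0516).

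TNFRSF10B had 3 probes, all above background on every array, and none passed in limma, where 1 had an unadjusted p under 0.05. Its brightest probe, ILMN_1699265, read 11.96, 11.90 and 11.86 in controls and 11.91, 11.99 and 11.97 in PBLD cells. These groups overlapped, and the difference of 0.05 had a 95% interval of -0.08 to 0.18. The probe ILMN_2331010, annotated to another transcript of the gene, differed by -0.01 (interval -0.15 to 0.13). On ILMN_1812915 the controls read 8.18, 8.32 and 8.23 and the PBLD arrays 8.37, 8.50 and 8.34. Those groups did not overlap, but the difference of 0.16 had an adjusted p of 0.244 and an unadjusted p of 0.0291. The brightest probe's difference turned to -0.03 after quantile normalization, to -0.02 after cyclic loess and to -0.03 after normexp, without passing in any.

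The decoy receptor TNFRSF10D (ILMN_1666022) read 9.26, 9.20 and 9.15 in controls and 8.98, 9.24 and 8.80 in PBLD cells. PBLD replicate 2 lay within the control range, while the other two PBLD arrays were below it. The difference was -0.20 (SE 0.09, adjusted p = 0.314) with a 95% interval of -0.38 to -0.01, which is not adjusted for the number of probes. Without PBLD replicate 2 it passed, at -0.31 (adjusted p = 0.0206). The SD was 0.22 in the PBLD group and 0.06 in the control group. TNFRSF10C, a decoy receptor outside the 10 genes and named after its values were seen, was above background on 3 of the 6 arrays, and its difference of 0.06 did not pass (adjusted p = 0.824).

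FAS, the receptor of FAS ligand, was represented by 1 probe, ILMN_1808132. It read 7.90, 8.04 and 7.87 in controls and 8.04, 7.99 and 7.93 in PBLD cells, under the background limit on all 6 arrays. The probe was therefore not above background in either group, and no fold is given. The difference of 0.05 did not pass (adjusted p = 0.878).

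FADD is the adaptor that links TRAIL receptors and FAS to the initiator caspases. Its probe ILMN_1758658 read 9.62, 9.68 and 9.60 in controls and 10.01, 9.90 and 9.84 in PBLD cells. All PBLD arrays were higher, without overlap. Means of 9.63 ± 0.04 and 9.92 ± 0.09 (SD, n = 3 each) gave a rise of 0.28 (SE 0.07, adjusted p = 0.0138, limma), or 1.22-fold, with a 95% interval of 0.14 to 0.42. FADD remained called in 10 of 14 alternatives. The call ended after normexp (0.30, adjusted p = 0.266), with an intensity trend (0.0685 as its adjusted p), without control replicate 1 (0.28, adjusted p = 0.0589) and without PBLD replicate 1 (0.23, adjusted p = 0.0895).

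TRADD, the adaptor best known from the TNF receptor complex, did not pass on either of its probes. On ILMN_1765851 the control arrays read 8.76, 8.82 and 8.60 and the PBLD arrays 8.85, 8.92 and 9.09. These groups did not overlap, and the difference of 0.23 (SE 0.08) had an adjusted p of 0.112 and an interval of 0.06 to 0.39. Its dimmer probe, ILMN_1793831, differed by -0.05 (interval -0.19 to 0.08), with overlapping groups. The probes of TRADD thus differed in sign, with neither called.

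CASP8 and CASP10, the initiator caspases, lay near or under the background limit on all of their 6 probes. For CASP8, ILMN_1673757 was above background on 5 arrays, ILMN_2377733 on 3, and ILMN_1787749 and ILMN_1809313 on none. The brightest, ILMN_1673757, read 8.17, 8.26 and 8.13 in controls and 8.06, 8.12 and 8.13 in PBLD cells, a difference of -0.08 (adjusted p = 0.686, interval -0.22 to 0.05). Its groups did not overlap, although the lowest control and the highest PBLD array both round to 8.13. The other CASP8 probes differed by 0.00, -0.03 and -0.06, and none passed. CASP10 read 8.15, 8.20 and 8.07 against 8.22, 8.19 and 8.06 on ILMN_1797578, a difference of 0.02 with overlapping groups (adjusted p = 0.972). Its other probe, ILMN_2321720, was above background on 2 arrays and differed by -0.04 (adjusted p = 0.923). A change in either caspase may not be detectable at this signal over background, and the intervals hold for the deposited values only.

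CFLAR, the inhibitor at the receptor complex, fell. Its probe ILMN_1789830 read 10.52, 10.31 and 10.34 in controls and 9.96, 10.07 and 9.86 in PBLD cells. No PBLD array reached the lowest control, and all arrays were above background. The means were 10.39 ± 0.12 and 9.96 ± 0.11 (SD, n = 3 each), a difference of -0.43 (SE 0.07, limma adjusted p = 0.00176) with a 95% interval of -0.59 to -0.27. Of the genes that fell, 327 fell further. CFLAR passed in all 14 alternatives, with differences from -0.53 to -0.36 and adjusted p up to 0.0424. The files hold 1 probe with this symbol, so the long and short proteins made from this gene were not told apart. CFLAR, CASP10 and CASP8 follow one another on chromosome 2 with 0 other protein-coding genes between them in RefSeq. Of these neighbours, CFLAR alone was well above the background limits and alone passed.

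**Figure D2:**
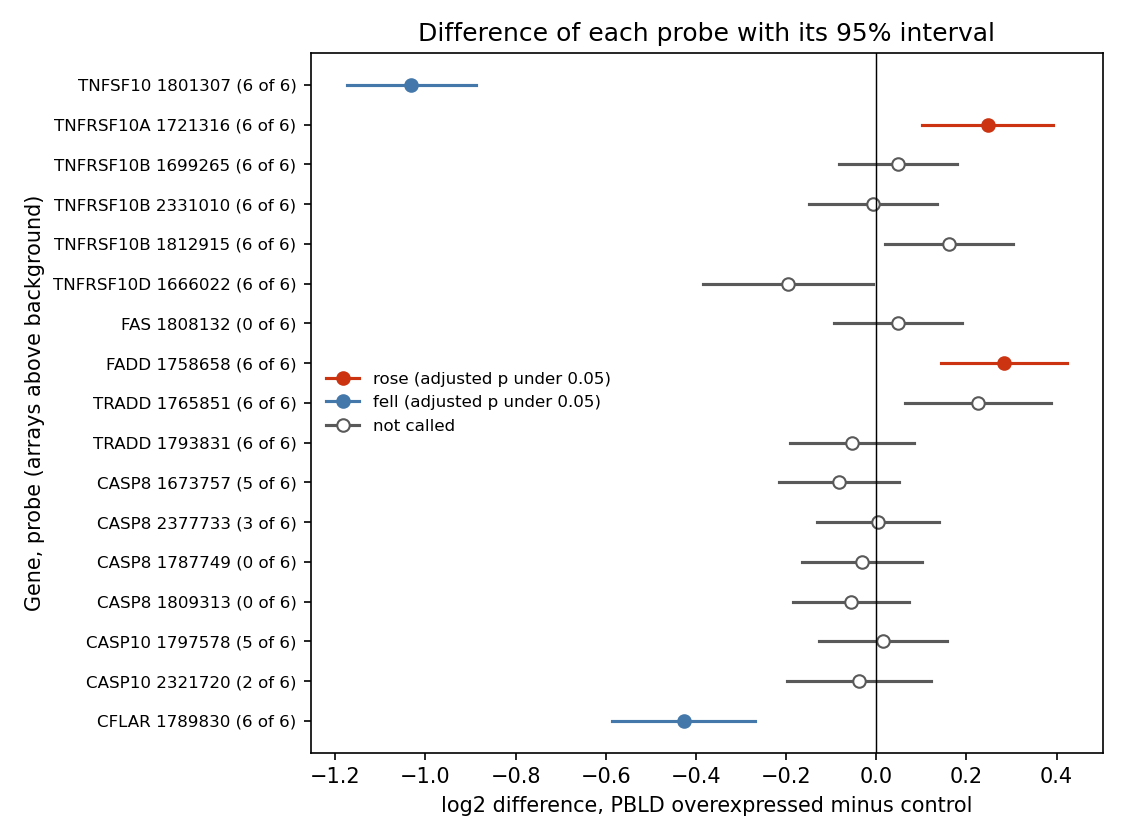
The log2 difference, PBLD overexpressed minus control, of each of the 17 probes (horizontal axis) with its 95% limma interval, and in brackets the number of arrays above background. The intervals of TNFSF10 and CFLAR lie under 0 and those of TNFRSF10A and FADD above 0 as called genes, while 13 probes did not pass.

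Other genes of the pathway were counted from 3 lists, of which 46 of 52 genes were matched to a probe. Of these 46, 7 rose, 1 fell and 38 did not pass, a share of 17.4% against the 10% of all genes, and their median difference was 0.08. The lists hold more bright genes than the array as a whole, with 38 of the 46 above background on at least 3 arrays against 11023 of 20046. All 8 called genes were among these 38, a share of 21.1% against 18.1% of all genes so filtered, which is near the background.

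Of 14 other ligands and receptors of the tumour necrosis factor family, 1 rose, 1 fell and 12 did not pass, a share of 14.3%, with a median of 0.04. TNFSF12, which encodes the ligand TWEAK, read 8.61, 8.64 and 8.56 in controls and 8.24, 8.35 and 8.34 in PBLD cells, lower on every PBLD array. Its log2 difference was -0.29 (adjusted p = 0.00849), which passed, but not without PBLD replicate 1 (-0.26, adjusted p = 0.0556). The other TNFSF12 probe, ILMN_1680003, was above background on 1 array and differed by -0.13 without passing (adjusted p = 0.371). TNFRSF12A, the receptor of TWEAK, also called Fn14, read 10.27, 10.51 and 10.21 in controls and 10.49, 11.00 and 10.64 in PBLD cells. It rose by 0.38 (adjusted p = 0.0456) although the groups overlapped. Its call ended in 6 of 14 alternatives, among them leaving out control replicates 1 (0.35) or 3 (0.32) and PBLD replicates 2 (0.24) or 3 (0.42), with adjusted p between 0.0505 and 0.178. The ligand genes FASLG and TNF were above background on no array.

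Of 18 measured regulators of the receptor complexes, 4 rose, 0 fell in limma (1 lower at an unadjusted p under 0.05) and 14 did not pass, a share of 22.2%, with a median of 0.08. The absence of called falls depended on the scaling. TNFAIP3, also called A20, an inhibitor of NF-kappaB signalling named after its values were seen, differed by -0.22 (adjusted p = 0.140) and fell after quantile normalization (-0.24, adjusted p = 0.0189), after cyclic loess (-0.26, adjusted p = 0.0104) and without control replicate 3 (-0.31, adjusted p = 0.0146). RBCK1, a subunit of the linear ubiquitin ligase and likewise named afterwards, differed by -0.16 (adjusted p = 0.346) and fell after cyclic loess (-0.23, adjusted p = 0.0404). OTULIN, a deubiquitinase that removes linear ubiquitin chains, read 9.35, 9.39 and 8.98 in controls and 9.66, 9.75 and 9.69 in PBLD cells. It rose by 0.46 (SE 0.09, adjusted p = 0.00421), and 1 control array lay well below the other two. CASP2, a caspase activated on a separate platform, rose by 0.36 (adjusted p = 0.00477), and its probe ILMN_1736568 differed by 0.23 (adjusted p = 0.0535). That probe passed in 5 of 14 alternatives, among them leaving out control replicate 1 (0.28, adjusted p = 0.0467). The dimmest CASP2 probe, ILMN_2296057, above background on all 6 arrays, differed by -0.01 (adjusted p = 0.990) with overlapping groups. MLKL, the executor of necroptosis, rose by 0.30 (adjusted p = 0.0216), while RIPK3, the kinase that activates it, was above background on no array. FAIM, an inhibitor of FAS-induced death, rose by 0.33 (adjusted p = 0.0407) with overlapping groups. None of its other probes passed: ILMN_2351548, above background on 6 arrays, differed by 0.10 (adjusted p = 0.681), ILMN_1716679, on 3, by 0.06, and ILMN_1723268, on 4, by -0.08.

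OTULIN and CASP2 lost their calls in 1 of 14 alternatives, normexp, while MLKL and FAIM lost theirs in 5 each. Those were normexp and leaving out control replicates 1 or 3 or PBLD replicates 1 or 2. MLKL then gave 0.23, 0.28, 0.29 and 0.29 without these arrays, and FAIM 0.30, 0.26, 0.26 and 0.33.

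Of 14 measured genes of the mitochondrial link and the executioner stage, 2 rose, 0 fell (0 also at an unadjusted p under 0.05 in limma) and 12 did not pass, a share of 14.3%, with a median of 0.14. BAX, which permeabilises the outer mitochondrial membrane, read 11.12, 11.13 and 10.92 in controls and 11.49, 11.34 and 11.24 in PBLD cells. It rose by 0.30 (adjusted p = 0.0266), with no overlap. Its other probe above background, ILMN_1683300, differed by 0.08 (adjusted p = 0.895). BAX kept its call in 10 of 14 alternatives. It ended after normexp (0.26, adjusted p = 0.35), with an intensity trend (adjusted p = 0.0630), without control replicate 3 (0.23, adjusted p = 0.124) and without PBLD replicate 1 (0.24, adjusted p = 0.163).

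BID, the substrate through which CASP8 reaches mitochondria, read 8.83, 8.74 and 8.76 in controls and 8.99, 8.98 and 9.01 in PBLD cells. It rose by 0.22 (adjusted p = 0.0459), higher on every PBLD array, and its probe ILMN_2372413 rose by 0.25 (adjusted p = 0.0291), a call lost without control replicates 1 (0.24), 2 (0.26) or 3 (0.25) or PBLD replicate 2 (0.20). Its dimmest probe, ILMN_2259495, differed by 0.03 (adjusted p = 0.919). BID kept its call in 3 of 14 alternatives, and leaving out any 1 array ended it, with differences from 0.20 to 0.24 and adjusted p from 0.0691 to 0.168.

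**Figure D3:**
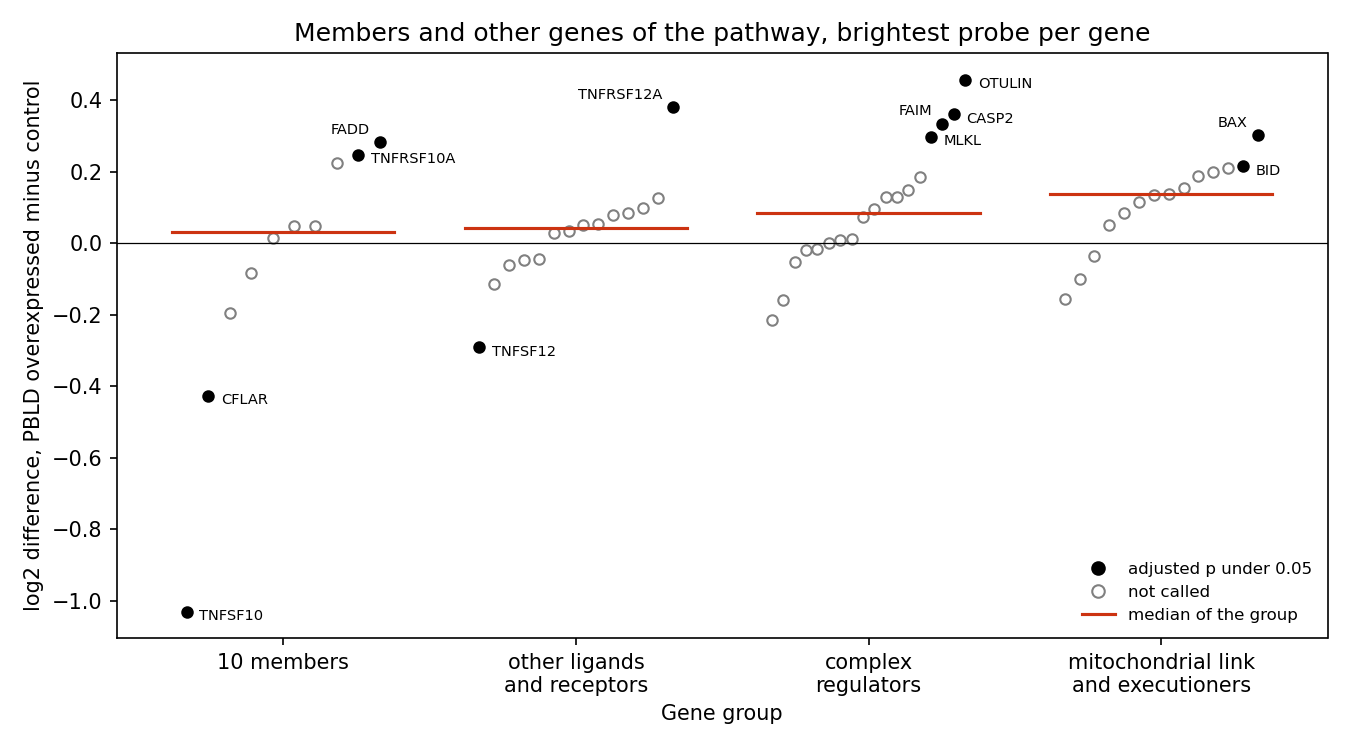
The log2 difference of the brightest probe of each gene (vertical axis) for the 10 pathway genes and for the 3 lists of other pathway genes, sorted within each group, with called genes filled and named and the group median as a line. TNFSF10 at -1.03 and CFLAR at -0.43 are the lowest points shown, and 7 of the 8 called genes of the other lists lie above 0.

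The genes whose values over the 6 arrays, centred on the control mean, lay nearest to TNFSF10 were sought among 11014 genes above background on at least 3 arrays. They were MIPOL1, a coiled-coil protein, CP, which encodes the plasma copper protein ceruloplasmin, and FREM1, an extracellular matrix protein. Root mean square differences from TNFSF10 were 0.07, 0.10 and 0.10 on the log2 scale. MIPOL1 read 9.77, 9.79 and 9.84 in controls and 8.90, 8.89 and 8.74 in PBLD cells, a difference of -0.96. CP differed by -0.94 and FREM1 by -1.09, and the choice by likeness to a gene that fell fixes their direction.

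**Figure D4:**
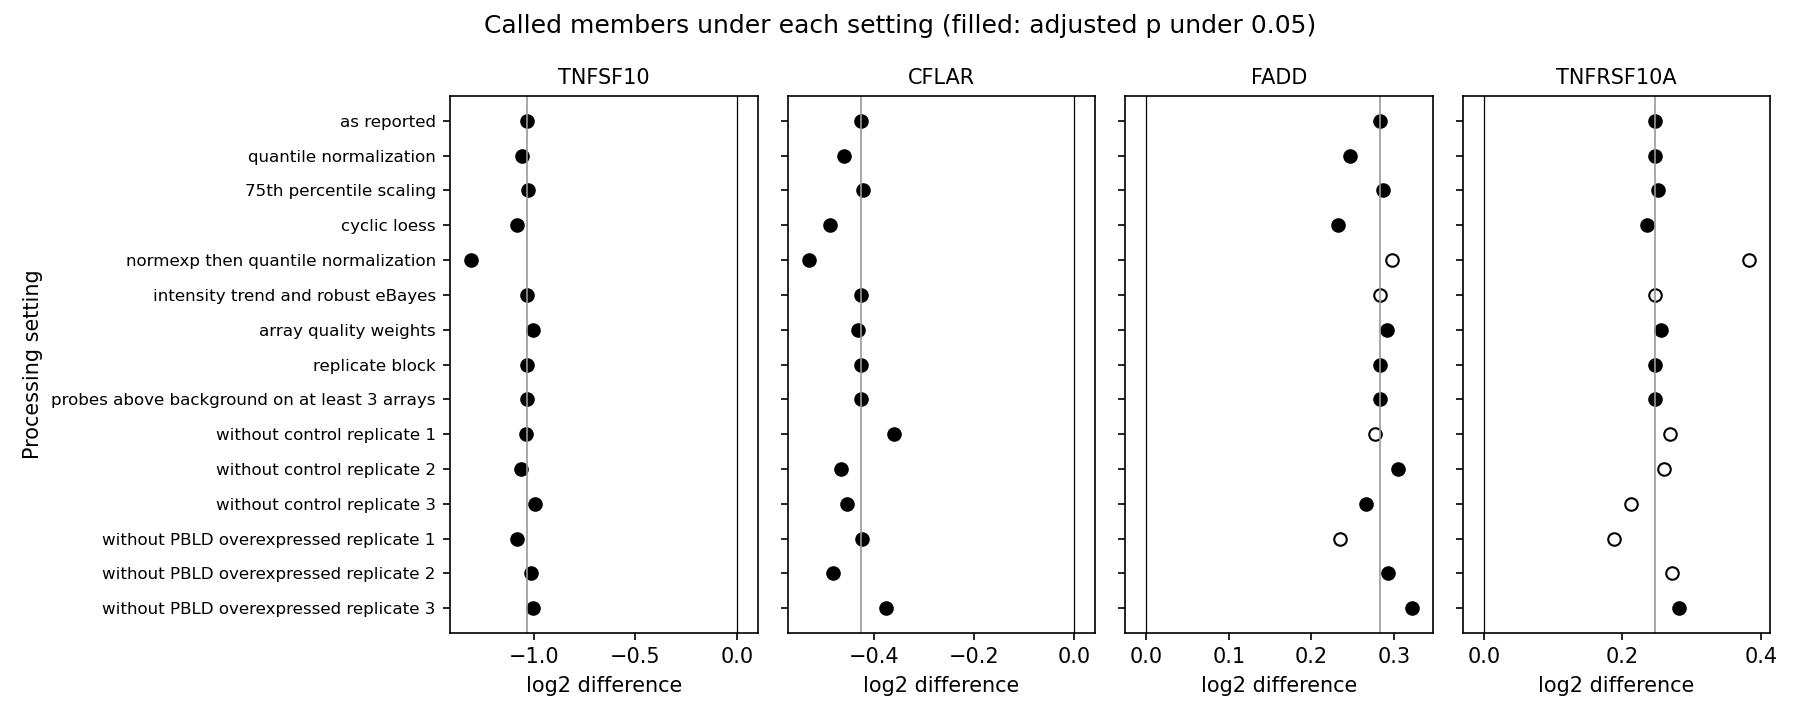
The log2 difference (horizontal axis, scaled separately in each panel) of TNFSF10, CFLAR, FADD and TNFRSF10A as reported and under the 14 alternatives run per probe, with filled points where the adjusted p was under 0.05 and a grey line at the reported value. All points of TNFSF10 and CFLAR are filled, against 10 of 14 alternatives for FADD and 7 of 14 for TNFRSF10A.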

How the data were processed

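The authors deposited a table of log2 intensities for 47323 probes per sample, as its range and its median of 8 on every array show. The scaling, background treatment and logging behind it are not given in the sources used here, and of tools the submitters' processing notes name BeadStudio alone, without a version. A second table was not used, because its 12 columns (6 signal, 6 detection) have names that match no sample's labels.

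Each probe was tested with limma 3.58.1 (lmFit, eBayes, two-sided) in R 4.3.3 on all 6 arrays, and p-values were adjusted over all probes by Benjamini-Hochberg, with calls at 0.05. A gene is represented by the probe with the highest mean. Probes with 1 gene symbol numbered 30113, with several 8 and with none 17202, and the last 2 kinds were not named. Silent genes for the background limit were those of odorant, taste and vomeronasal receptors and of keratin-associated proteins. The steps were tested on simulated data with the same spread for every probe. Recovery was required there only at folds larger than those of every called pathway gene except TNFSF10.

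The members, lists, motifs and alternatives were chosen with earlier results of these data known. Named were all member probes, called genes of the lists (up to 8 each), the 3 nearest profiles to the member with the smallest p, and PBLD. Genes of the lists that were matched to no probe by symbol are not analysed here. RefSeq start sites were read for 5 of the 10 genes. Those of TNFRSF10A, TNFRSF10B and TNFRSF10D were left out of the search, so their absence says nothing about RefSeq. TRADD and CASP10 were searched by symbol and matched no window in the sequences used. The array has no named build, so probes are given no coordinates; those of the printed sequences and the gene order are RefSeq's (GRCh38.p14). Alternatives were 3 scalings, normexp (offset 50) followed by quantile scaling, robust eBayes with an intensity trend, array weights, a replicate block, a filter on dim probes, leaving out each array, a threshold of 0.01 and the mean of a gene's probes. The number of arrays limits the precision. Figures used matplotlib 3.10.9 in Python 3.11.15.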

Additional observations from a re-analysis of the deposited data

How the results depend on the processing

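The calls of TNFSF10 and CFLAR held in every alternative run per probe, and PBLD kept its rise in all 14 (4.58 to 5.76). Of the 10 pathway genes, 4 were called, against 2 after normexp, 2 with an intensity trend, 2 at a threshold of 0.01 and 2 to 4 without single arrays. Of the other pathway genes 8 were called, against 1 after normexp, 3 at a threshold of 0.01, 4 with the mean of a gene's probes and 4 to 7 without single arrays; cyclic loess gave 6 higher and 3 lower. Over the array 2006 genes were called, 1164 higher and 842 lower. There were 647 after normexp (244 and 403) and 1171 at a threshold of 0.01, and cyclic loess gave 1177 higher and 1475 lower. Without single arrays 1404 to 1950 were called. Fewer rose than fell without control replicate 3 (741 and 989) and without PBLD replicate 2 (775 and 930), and more rose than fell without each other array. Fewer calls at 0.01 follow from the threshold, and the cause of the other changes was not tested.

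Sign changes numbered 13 among the probes of the 10 genes and 4 among those of other named genes, all uncalled. TNFRSF10B ILMN_1699265 turned from 0.05 to -0.0309 (quantile), -0.0223 (cyclic loess) and -0.0321 (normexp). Without single arrays, TNFRSF10B ILMN_2331010 ran from -0.0596 to 0.0367, CASP8 ILMN_2377733 from -0.0322 to 0.0354, and the CASP10 probes ILMN_1797578 and ILMN_2321720 from -0.0207 to 0.0635 and from -0.0859 to 0.0359; BAX ILMN_1683300 ran from -0.061 to 0.2032 and CASP2 ILMN_2296057 from -0.0356 to 0.0308.

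Deviations of same-numbered arrays correlated at 0.11, 0.08 and 0.06 over 19207 probes, so the numbers were not taken to pair the samples, although each array correlated best with its own number, a hint from the data. With the replicate block 2720 genes, the same 4 pathway genes and 8 of the others were called, and CASP2 ILMN_1736568 passed (adjusted p = 0.0247). Dim probes (FAS, CASP8, CASP10) limit what could be seen.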

Other observations

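The windows of the TRAIL receptor genes were not searched. RefSeq lists several start sites for the members searched and matched besides TNFSF10 and FADD, 4 for CFLAR, 3 for CASP8 and 3 for FAS. AP-1 letters lay before 1 of the starts of each of these genes, from 160 bases before it in CFLAR, 61 in CASP8 and 242 in FAS, and 6.57% of all windows hold them. Which of these starts is used in HepG2 cells was not measured by the arrays.

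The TRAIL receptor genes TNFRSF10B, TNFRSF10C, TNFRSF10D and TNFRSF10A follow one another with 0 other protein-coding genes between them in RefSeq. Their brightest probes differed by 0.05, 0.06, -0.20 and 0.25 in that order, and TNFRSF10A alone passed.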
